A study of Mus musculus with 4 samples.

Results

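The 40 genes described here belong to the response that follows activation of the transcription factor ATF4: stress regulators and effectors, enzymes of serine, one-carbon and other amino acid metabolism, and amino acid transporters. They were chosen by name, as the rows of the deposited expression table that carry one of 40 listed gene symbols, and all 40 were found among 24497 gene rows. RNA sequencing was done on cultured mouse acute myeloid leukaemia cells driven by NRAS together with AE9a, a truncated form of the AML1-ETO fusion protein. The WT group holds 2 libraries of such cells derived from haematopoietic stem cells of wild-type bone marrow, and the Tet2 KO group holds 2 libraries of cells derived in the same way from Tet2-/- mice, which lack exon 3 of the gene. Both groups carry the NRAS and AE9a oncogenes, and both were grown with SCF (50 ng/ml), IL-3 and IL-6 (10 ng/ml each), G418 (1 mg/ml) and puromycin (2 µg/ml), with no other treatment. Age, sex and the number of donor mice or transduced clones behind each group are not stated in the labels, and the deletion is present throughout culture and not induced. Nothing says whether the replicates come from different cultures or animals. The p-values therefore cover only how far these libraries spread, which may be technical.

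When amino acids run short, unfolded proteins build up in the endoplasmic reticulum, mitochondria fail or haem is lacking, a kinase phosphorylates the initiation factor eIF2alpha. Bulk translation then falls while the mRNA of ATF4, which carries short upstream reading frames, is translated more. ATF4 dimerises with C/EBP factors on composite elements and raises the RNA of genes that import and make amino acids, of the tRNA synthetases, of the death-promoting factor CHOP, and of feedback genes such as Trib3 and Ppp1r15a. In leukaemia cells this programme is known for its part in survival under nutrient and protein-folding stress. RNA levels of target genes report on it only indirectly, since much of ATF4 control is translational.

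Values are TPM, a length-corrected share of all transcripts in a library, so levels of different genes can be set side by side, while sequencing depth is not kept and is unknown. The libraries had 14753 to 15139 genes above 0 TPM. Added ERCC spike-in RNAs took 4.38 and 4.43% of the WT and 5.48 and 5.33% of the Tet2 KO libraries. Tet2 itself stood at 16.62 and 16.98 TPM in WT libraries and at 16.98 and 16.95 TPM in Tet2 KO, a value over all exons that does not check the loss of exon 3. The myeloid and progenitor genes Ptprc, Spi1, Itgam, Mpo, Cebpa and Kit were all above 10 TPM in all 4 libraries, as the label of the cells would have it. All 8 lymphoid markers were under 1 TPM in every library. Fewer cells of a type and less RNA per cell cannot be told apart in bulk RNA.

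Most of the 40 genes had higher RNA in Tet2 KO cells. Together they took 0.252 and 0.249% of all transcripts in the WT libraries and 0.502 and 0.521% in the Tet2 KO libraries, a sum 2.04-fold higher. In limma on log2(TPM + 1), with Benjamini-Hochberg adjustment over the 11452 genes that reached 1 TPM in 2 or more libraries and a threshold of 0.05, 36 members were called higher in Tet2 KO, 1 was called lower (Atf3) and 1 was not called (Cebpb). Of all tested genes, 54.4% were called higher and 19.5% lower. The 2 remaining members, Vldlr and Cbs, stayed at or below 0.09 TPM in every library and were not tested. Another 3, Aldh1l2, Cth and Slc7a3, passed the filter only through the Tet2 KO libraries and so had to differ. Among the 35 members of at least 1 TPM in all 4 libraries, 33 were called higher, with a median log2 fold change of 1.06, against a median of 0.22 over the 10755 genes that met the same condition.

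Many of the rises were large. A log2 fold change of at least 1 was reached by 23 called members, and by 6.1% of all tested genes. The counts of higher members in this paragraph include Aldh1l2, Cth and Slc7a3, which passed the filter only through the Tet2 KO libraries. The general shift of the table, 0.228 on the log2 scale as the median of all tested genes, is included in these values. After median-ratio scaling, which takes that shift out, 34.2% of all genes were called higher and 33.7% lower, and 34 of the 38 tested members were called higher, 1 lower and 3 not called. On that scale 17 members rose by a log2 fold change of at least 1, and 3.93% of all tested genes did. The libraries of the groups did not overlap for 36 of the 38 tested members with Tet2 KO higher and for 1 with WT higher, where 62.4% of all tested genes separated with Tet2 KO higher. Replicates lay close together: the largest gap between libraries of a group in a tested member was 0.327 on the log2(TPM + 1) scale, in Cth.

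**Figure D1:**
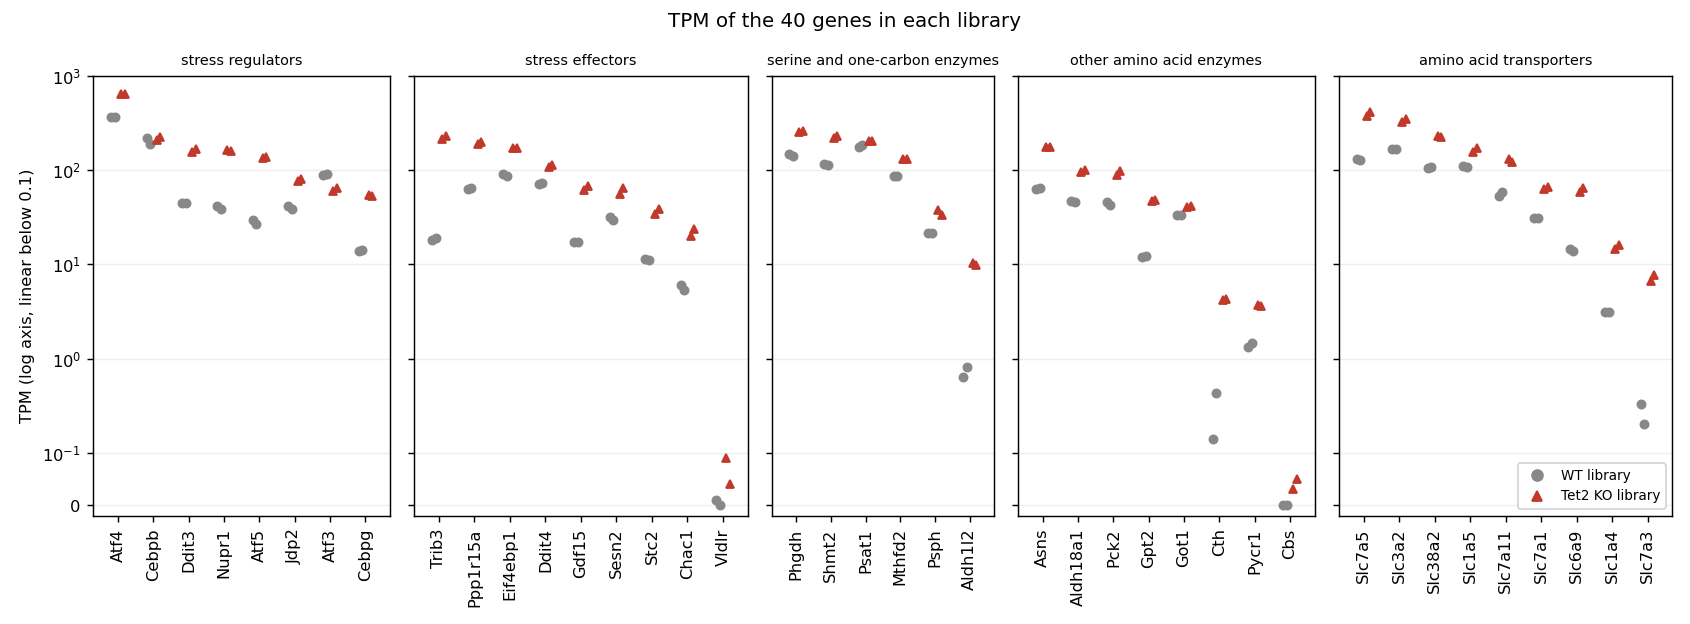
TPM of each of the 40 genes (y axis, logarithmic above 0.1 TPM and linear below) in the 2 WT (grey circles) and the 2 Tet2 KO libraries (red triangles), 1 panel per branch, genes ordered by their Tet2 KO mean. The symbols of the groups are apart for every gene but Cebpb, and Atf3 is the only gene with WT above Tet2 KO.

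Among the 8 regulators, 6 were called higher, Atf4 included, where 54.4% of all tested genes were. The factors Atf3 and Cebpb did not follow. Atf4 (chromosome 15, 80255184 to 80257541, mm10), the master factor of the response, had the highest RNA level of all 40 genes, at 366.44 and 367.03 TPM in WT and 633.79 and 645.87 TPM in Tet2 KO. This is a 1.74-fold rise (log2 fold change 0.80, SE 0.0358, limma adjusted p = 8.11e-12). The replicates differed far less than the groups. Ddit3, which encodes CHOP, a bZIP factor linked to cell death under prolonged stress, went from 44.86 and 44.46 to 156.46 and 168.71 TPM (3.64-fold, SE 0.0521 on the log2 scale, limma adjusted p = 3.08e-14). Relative to Atf4 RNA, Ddit3 RNA stood at a ratio of 0.122 ± 0.00091 (SD, n = 2) in WT and 0.254 ± 0.0101 (SD, n = 2) in Tet2 KO.

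The largest rise among the regulators was that of Atf5, a bZIP factor of mitochondrial and amino acid stress, from 29.65 and 26.74 to 134.38 and 138.80 TPM (log2 fold change 2.24, SE 0.0583, limma adjusted p = 1.14e-14). Nupr1, a small stress-induced chromatin protein, was at 41.99 and 38.63 TPM in WT libraries and at 162.61 and 158.80 TPM in Tet2 KO (log2 fold change 1.97). Cebpg, a dimer partner of ATF4, was at 13.71 and 14.17 TPM in WT libraries and at 54.70 and 53.37 TPM in Tet2 KO (log2 fold change 1.88). Each of these 3 factors was between 3.88-fold and 4.84-fold higher, more than Atf4 itself. Jdp2, an AP-1 family repressor, rose 1.96-fold.

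Atf3, a repressor and activator of the stress response that ATF4 is known to induce, moved the other way. It stood at 88.60 and 90.97 TPM in WT libraries and at 60.50 and 64.73 TPM in Tet2 KO, so that both Tet2 KO libraries lay below both WT libraries (1.43-fold lower, log2 fold change -0.51, SE 0.0531, limma adjusted p = 2.36e-07). The fall was larger relative to the median of all genes, at -0.75. Cebpb, a C/EBP factor of myeloid differentiation and stress, was at 217.66 and 190.73 TPM in WT libraries and at 209.35 and 224.67 TPM in Tet2 KO. Its groups overlapped, and it was not called (log2 fold change 0.09, 95% interval -0.06 to 0.24, limma adjusted p = 0.24). Its call hung on single libraries and on the scale: without WT replicate 1 it was called higher (log2 fold change 0.18, limma adjusted p = 0.0197), without WT replicate 2 the estimate was -0.01 (limma adjusted p = 0.951), and on the spike-in scale it was called lower (-0.21, limma adjusted p = 0.0071).

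The effectors as a branch had the highest median, a log2 fold change of 1.58 over its 8 tested genes, all called higher. Of all tested genes, 54.4% were called higher. Trib3 (chromosome 2, 152337422 to 152344032), a pseudokinase that binds AKT and feeds back on ATF4 and CHOP, had 18.08 and 18.82 TPM in WT and 215.23 and 231.11 TPM in Tet2 KO, and its log2 fold change of 3.53 (SE 0.0553, limma adjusted p = 2.99e-17) ranked 7 among all 11452 tested genes. Per unit of Atf4 RNA it went from 0.0503 ± 0.00137 to 0.349 ± 0.0129 (SD, n = 2 each). In WT libraries Trib3 RNA lay between Gdf15 and Sesn2 in level, and in Tet2 KO libraries it was the most abundant of the 9 effectors. Gdf15, a secreted stress cytokine, had 17.12 and 17.41 TPM in WT and 61.62 and 67.68 TPM in Tet2 KO (log2 fold change 1.84). Chac1, which degrades glutathione and is among the most selective ATF4 targets, had 6.08 and 5.37 TPM in WT and 19.83 and 23.52 TPM in Tet2 KO (log2 fold change 1.75).

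Stc2, a secreted glycoprotein induced by ER stress, had 11.40 and 11.25 TPM in WT and 33.96 and 38.73 TPM in Tet2 KO (log2 fold change 1.60). Ppp1r15a encodes GADD34, the inducible cofactor that brings phosphatase 1 to eIF2alpha and so ends the response. It went from 63.65 and 65.24 TPM to 189.96 and 197.52 TPM (log2 fold change 1.57), and its constitutive counterpart Ppp1r15b from 71.83 ± 0.919 to 101.1 ± 1.17 TPM. The inducible cofactor was thus below the constitutive one in both WT libraries (ratio 0.894 and 0.9) and above it in both Tet2 KO libraries (1.9 and 1.94). The 3 genes that restrain growth signalling rose less. Eif4ebp1, the cap-binding inhibitor 4E-BP1, rose 1.94-fold, Sesn2, a leucine sensor and mTORC1 inhibitor, 1.94-fold, and Ddit4, the mTORC1 inhibitor REDD1, 1.53-fold. Vldlr, a lipoprotein receptor induced by ATF4 in other tissues, was at 0.01 and 0 TPM in WT libraries and at 0.09 and 0.04 TPM in Tet2 KO.

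**Figure D2:**
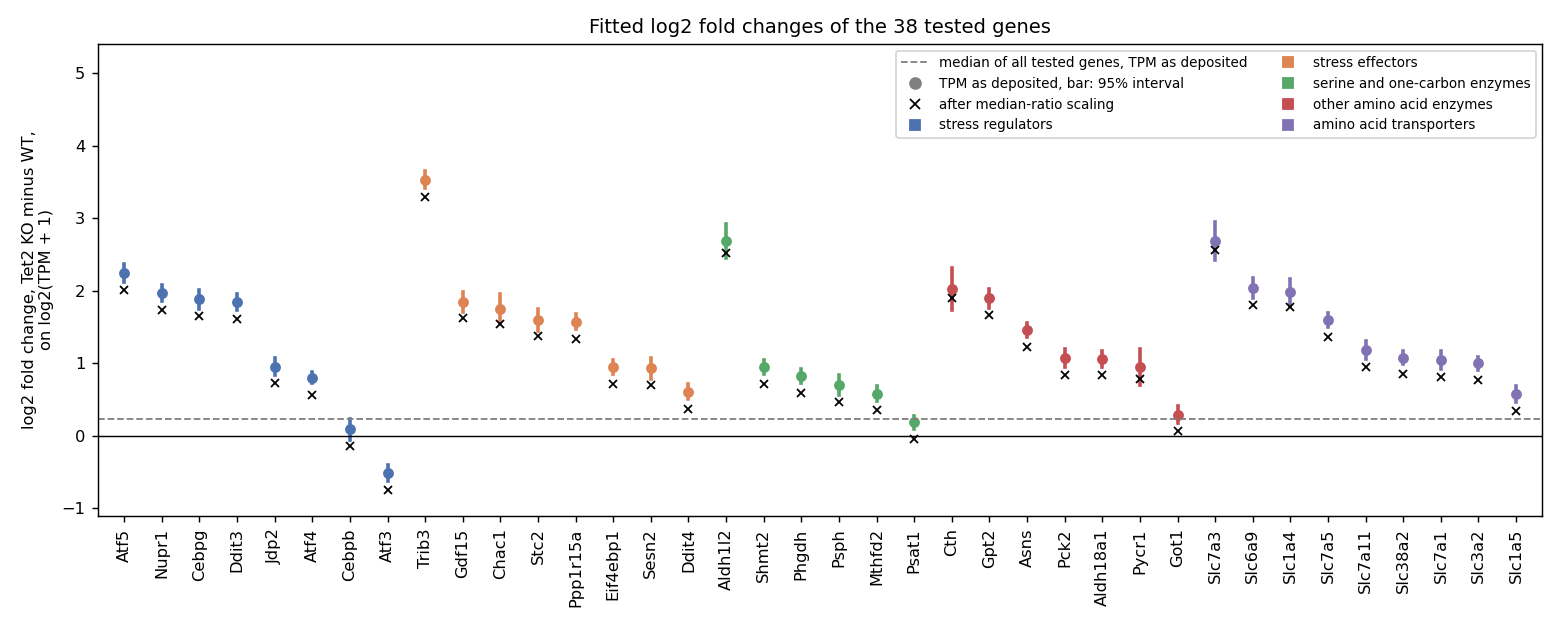
Log2 fold change (Tet2 KO minus WT, on log2(TPM + 1), y axis) of the 38 tested genes, coloured by branch and ordered by size within it, as fitted by limma on deposited TPM (circles, bars: 95% interval) and after median-ratio scaling (crosses), with the median of all tested genes as a dashed line. Trib3 stands highest at 3.53 and Atf3 is the only gene clearly below 0, while Cebpb, Psat1 and Got1 lie near the dashed line.

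ATF4 and C/EBP factors bind a composite known as the C/EBP-ATF response element, searched here as TGATGNAAN on both strands. Of the 40 genes, 34 had an entry in the RefSeq promoter table (GRCm38.p6, the assembly of mm10), all but Cth, Slc7a5, Eif4ebp1, Aldh1l2, Slc7a3 and Slc1a5, and 10 of these, or 29.4%, held at least 1 match in the 250 bases before an annotated start. The share was 3.89% over all 27025 genes of that table and 2.44% over the 8905 that were tested. As the 40 genes were listed by name for their part in the ATF4 response, their share describes the list and not these libraries. By branch, a match was found for 3 of 8 regulators, 2 of 8 effectors, 0 of 5 serine and one-carbon enzymes, 4 of 7 other enzymes and 1 of 6 transporters. The palindrome TGACGTCA, the cyclic AMP response element that other ATF and CREB factors bind, was in the window of 1 member, Ppp1r15a, and of 3.16% of tested genes. A match says nothing about binding in these cells, and elements farther from the start or within introns were outside the window, as was any start in use here that is not annotated. Of the 10 genes, 8 rose, Atf3 fell and Vldlr was not tested. The 5 windows below show how the same letters stand before 4 genes that rose and 1 that fell, in gene orientation, 5′ to 3′, with the matches in capitals. The windows are chr2:119350992-119351241 (plus strand) for Chac1, chr3:50443614-50443863 (minus strand) for Slc7a11, chr14:55540016-55540265 (plus strand) for Pck2, chr11:120643749-120643998 (minus strand) for Pycr1 and chr1:191183334-191183583 (minus strand) for Atf3.

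Chac1: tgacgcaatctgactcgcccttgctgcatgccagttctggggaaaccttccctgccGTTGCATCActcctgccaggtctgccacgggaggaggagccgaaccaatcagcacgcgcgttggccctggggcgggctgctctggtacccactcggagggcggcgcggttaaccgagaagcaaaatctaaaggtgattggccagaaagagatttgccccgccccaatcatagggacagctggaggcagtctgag
Slc7a11: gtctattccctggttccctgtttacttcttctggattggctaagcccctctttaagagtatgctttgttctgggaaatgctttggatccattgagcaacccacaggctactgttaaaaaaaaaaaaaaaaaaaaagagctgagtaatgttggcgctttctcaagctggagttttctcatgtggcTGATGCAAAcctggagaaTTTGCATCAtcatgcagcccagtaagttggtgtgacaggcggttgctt
Pck2: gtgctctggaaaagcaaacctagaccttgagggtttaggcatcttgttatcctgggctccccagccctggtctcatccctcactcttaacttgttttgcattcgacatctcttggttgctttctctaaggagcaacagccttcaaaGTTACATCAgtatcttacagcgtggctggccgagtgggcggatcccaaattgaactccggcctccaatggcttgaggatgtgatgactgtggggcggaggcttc
Pycr1: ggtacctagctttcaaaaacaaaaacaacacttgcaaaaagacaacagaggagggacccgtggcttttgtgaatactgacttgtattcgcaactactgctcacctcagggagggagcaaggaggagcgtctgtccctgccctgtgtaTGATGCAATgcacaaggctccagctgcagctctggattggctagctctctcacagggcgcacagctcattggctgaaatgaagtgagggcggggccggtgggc
Atf3: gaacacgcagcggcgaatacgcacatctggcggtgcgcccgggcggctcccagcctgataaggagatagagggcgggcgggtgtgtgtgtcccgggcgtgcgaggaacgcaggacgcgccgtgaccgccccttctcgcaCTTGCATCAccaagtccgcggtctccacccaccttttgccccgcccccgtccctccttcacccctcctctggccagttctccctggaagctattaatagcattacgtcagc

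Slc7a11 was the only member with 2 matches, which lie on opposite strands and begin 66 and 48 bases before the start. The matches began 194 bases before the start in Chac1, 104 in Pck2, 103 in Pycr1 and 111 in Atf3. Asns, Nupr1 and Jdp2 also held a match, within windows that overlap annotated exons. Exons cover 45 of the 250 bases in Asns, 62 in Jdp2 and all 250 in Nupr1. Only 30 bases around each match are therefore shown.

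Asns: cccagccacaTGATGAAACttcccgcacgc
Nupr1: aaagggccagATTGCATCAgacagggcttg
Jdp2: tagccggggcTGATGCAACccgtcccgccg

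These stretches lie at chr6:7693213-7693242 (minus strand), chr7:126625562-126625591 (minus strand) and chr12:85599373-85599402 (plus strand). Trib3, Atf5 and Slc6a9, which rose more than any of these, had no match in the windows searched. Got1, which had a match, rose 1.23-fold and was near the median of all genes.

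The serine and one-carbon enzymes had the smallest median of the 5 branches. All 6 were called higher, where 54.4% of all tested genes were. The median log2 fold change was 0.76, or 0.70 over the 5 that were at 1 TPM or more in every library. Serine is made from 3-phosphoglycerate by Phgdh, Psat1 and Psph in turn, then split by Shmt2 and Mthfd2 in mitochondria into glycine and one-carbon units. Phgdh rose 1.78-fold, Psph 1.65-fold, Shmt2 1.94-fold and Mthfd2 1.504-fold, with adjusted p-values from 1.45e-11 to 8.57e-08 in limma. Psat1, the aminotransferase between Phgdh and Psph, was at 174.22 and 182.33 TPM in WT libraries and at 201.84 and 204.56 TPM in Tet2 KO. That rise of 0.19 on the log2 scale (limma adjusted p = 9.26e-04) is below the general shift. After median-ratio scaling the estimate for Psat1 was -0.05 and was not called (limma adjusted p = 0.315). The order of the first 2 enzymes turned, with Psat1 RNA at 1.24 ± 0.081 times that of Phgdh in WT and at 0.792 ± 0.018 times in Tet2 KO (SD, n = 2).

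Aldh1l2, which oxidises formyl-folate in mitochondria, was the exception in size, with 0.63 and 0.82 TPM in WT and 10.22 and 9.87 TPM in Tet2 KO (log2 fold change 2.68, SE 0.11). Its cytosolic counterpart Aldh1l1 moved in the opposite direction, from 7.56 and 7.63 TPM to 1.03 and 1.02 TPM (-2.09 on the log2 scale, limma adjusted p = 4.70e-11). The ratio of the mitochondrial to the cytosolic gene was 0.0833 and 0.107 in the WT libraries and 9.92 and 9.68 in the Tet2 KO libraries. The ratios of the other pairs also shifted towards the mitochondrial gene, by less. Mthfd1, the cytosolic partner of Mthfd2, fell from 40.8 ± 0.212 to 22.5 ± 1.63 TPM, which took the ratio of Mthfd2 to Mthfd1 from 2.12 ± 0.00497 to 5.82 ± 0.38. The ratio of Shmt2 to Shmt1 went from 3.98 ± 0.281 to 6.44 ± 0.435 (SD, n = 2). The ratios are given as a description and were not tested.

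The other amino acid enzymes included the large rises of asparagine and alanine synthesis. Asns (chromosome 6, 7675169 to 7693254), the asparagine synthetase gene and a classic ATF4 target, had 62.66 and 64.46 TPM in WT and 176.53 and 177.24 TPM in Tet2 KO, 2.78-fold more (log2 fold change 1.46, SE 0.0468, limma adjusted p = 1.30e-13). Gpt2, the mitochondrial alanine aminotransferase, had 12 and 12.27 TPM in WT and 47.19 and 48.38 TPM in Tet2 KO, 3.94-fold more (log2 fold change 1.89). Got1, the cytosolic aspartate aminotransferase, was at 33.15 and 33.54 TPM in WT libraries and at 40.42 and 41.68 TPM in Tet2 KO (log2 fold change 0.29, limma adjusted p = 2.35e-04). It was no longer called after median-ratio scaling (0.06, limma adjusted p = 0.26), after quantile normalization (0.07) or on the spike-in scale (0.0035).

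Proline is made from glutamate by Aldh18a1 and Pycr1. Aldh18a1 was at 46.49 and 46.29 TPM in WT libraries and at 95.94 and 100.18 TPM in Tet2 KO (log2 fold change 1.06), and Pycr1, at a far lower level of 1.40 ± 0.106 TPM in WT, rose 2.59-fold. Pck2, the mitochondrial PEP carboxykinase, had 45.49 and 42.48 TPM in WT and 88.87 and 98.22 TPM in Tet2 KO (log2 fold change 1.07). The 2 enzymes of cysteine synthesis from homocysteine were low. Cth, the second of them, was at 0.14 and 0.43 TPM in WT libraries and at 4.14 and 4.24 TPM in Tet2 KO (log2 fold change 2.02). Cbs, the first, was listed at 0 in the WT libraries and at 0.03 and 0.05 TPM in Tet2 KO.

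All 9 transporters were called higher, on the deposited scale and after median-ratio scaling, where 54.4% and 34.2% of all tested genes were. A log2 fold change of at least 1 was reached by 8 of them on the deposited scale and by 4 after median-ratio scaling. Of all tested genes, 6.1% and 3.93% reached it. Slc7a3 is in each of these counts and passed the filter only through the Tet2 KO libraries. The 8 transporters at 1 TPM or more in every library were all called higher on the deposited scale. The neutral amino acid exchanger LAT1 is a dimer of the chains encoded by Slc7a5 and Slc3a2, and xCT, the cystine and glutamate exchanger, joins Slc7a11 to the same heavy chain. Slc7a5 had 132.27 and 127.13 TPM in WT and 378.75 and 410.74 TPM in Tet2 KO (log2 fold change 1.60, SE 0.0462, limma adjusted p = 5.30e-14). Slc3a2 had 167.25 and 168.38 TPM in WT and 327.39 and 346.64 TPM in Tet2 KO (log2 fold change 1.00). Slc7a5 RNA was therefore below that of its heavy chain in both WT libraries, at a ratio of 0.791 and 0.755, and above it in both Tet2 KO libraries, at 1.16 and 1.18. Slc7a11 went from 52.74 and 58.05 to 131.65 and 121.32 TPM (log2 fold change 1.18), and its ratio to Slc3a2, 0.33 ± 0.0208 in WT and 0.376 ± 0.0369 in Tet2 KO, differed by about the spread of the libraries.

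Larger folds were found among transporters of lower level. Slc6a9, the glycine transporter GlyT1, had 14.61 and 14.00 TPM in WT and 58.59 and 64.77 TPM in Tet2 KO (log2 fold change 2.03). Slc1a4, the exchanger ASCT1 for alanine, serine and cysteine, had 3.14 and 3.12 TPM in WT and 14.57 and 15.94 TPM in Tet2 KO (log2 fold change 1.98). Its relative Slc1a5 (ASCT2), a glutamine carrier with far more RNA, rose 1.495-fold, the smallest fold of the branch.

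Cationic amino acid carriers went separate ways. Slc7a3 (CAT3) was at 0.33 and 0.20 TPM in WT libraries and at 6.58 and 7.69 TPM in Tet2 KO (log2 fold change 2.68), and Slc7a1 (CAT1), the general arginine and lysine carrier, at 30.87 and 31.29 TPM in WT and 63.37 and 66.84 TPM in Tet2 KO (log2 fold change 1.04). Slc7a2 (CAT2), which is not among the 40 genes and is known from activated macrophages, fell from 22.0 ± 0.325 to 2.83 ± 0.12 TPM (log2 fold change -2.59, limma adjusted p = 1.87e-13). The ratio of Slc7a1 to Slc7a2 was 1.42 and 1.41 in WT and 21.8 and 24.4 in Tet2 KO. Slc38a2 (SNAT2), a sodium-coupled carrier of small neutral amino acids, had 105.14 and 108.49 TPM in WT and 231.74 and 221.81 TPM in Tet2 KO (log2 fold change 1.08).

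Set side by side, the branch medians were 1.58 for effectors, 1.40 for regulators, 1.18 for transporters, 1.07 for other amino acid enzymes and 0.76 for serine and one-carbon enzymes, and the differences between branches were not tested. By summed TPM, in which abundant genes weigh most, the effectors were 2.86-fold higher, the other enzymes 2.31-fold, the transporters 2.26-fold, the regulators, which Atf4 and Cebpb dominate, 1.83-fold and the serine and one-carbon enzymes 1.57-fold. Members with a log2 fold change of at least 1 numbered 5 of 8 tested effectors, 4 of 8 regulators, 8 of 9 transporters, 5 of 7 tested other enzymes and 1 of 6 serine and one-carbon enzymes on the deposited scale, and 5, 4, 4, 3 and 1 after median-ratio scaling. On both scales these counts include Slc7a3, Cth and Aldh1l2, which passed the filter only through the Tet2 KO libraries. Aldh1l2 was the only serine and one-carbon enzyme counted. Of all tested genes, 6.1% reached that size on the deposited scale and 3.93% after median-ratio scaling. Of the 100 largest rises in the whole table, 8 were members: Trib3, Slc7a3, Aldh1l2, Atf5, Slc6a9, Cth, Slc1a4 and Nupr1. Of these, 5 reached the filter in the WT libraries too, and Slc7a3, Aldh1l2 and Cth did not. For 11 members, exons overlap those of a gene on the opposite strand (Aldh1l2, Atf5, Cebpb, Cebpg, Ddit3, Jdp2, Pck2, Ppp1r15a, Psph, Shmt2 and Slc6a9), and as it is not stated that counting used strand, their values are uncertain to that extent. The longest such overlaps were those of Slc6a9 with Ccdc24 (1429 exon bases), Aldh1l2 with D10Wsu102e (1056), Slc6a9 with Gm17114 (511) and Psph with Cct6a (452). Ccdc24 was at 0.35 to 0.51 TPM in all 4 libraries, D10Wsu102e at 24.64 and 25.97 TPM in WT and 36.33 and 35.59 TPM in Tet2 KO, and Cct6a at 215.58 and 217.92 TPM in WT and 208.25 and 194.11 TPM in Tet2 KO.

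The genes that act upstream of ATF4 moved little and in both directions. Of 14 genes of the eIF2 kinases, eIF2, eIF2B and their partners, 7 were called higher, 3 lower and 4 not called. Those counts are near the shares of all tested genes, of which 54.4% were called higher and 19.5% lower. The median log2 fold change was 0.12, against 0.228 over all tested genes. After median-ratio scaling 3 of the 14 were higher and 7 lower, where 34.2% and 33.7% of all tested genes were. The same shares apply to the counts of the lists that follow. The amino acid sensor kinase Eif2ak4 (GCN2) had 16.3 ± 0.721 TPM in WT and 22.5 ± 1.45 TPM in Tet2 KO, and the ER kinase Eif2ak3 (PERK) 16.2 ± 0.898 and 21.03 ± 1.22 TPM (log2 fold changes 0.44 and 0.36, limma adjusted p = 3.29e-05 and 3.08e-04). After median-ratio scaling Eif2ak4 was still called, at 0.22 (limma adjusted p = 0.0129), and Eif2ak3 was not, at 0.13 (limma adjusted p = 0.093), and on the spike-in scale neither was (limma adjusted p = 0.0653 and 0.412). The double-stranded RNA kinase Eif2ak2 (PKR) was at 0.19 on the log2 scale (limma adjusted p = 0.00872), which turned to -0.03 after median-ratio scaling, and the haem-regulated kinase Eif2ak1 (HRI) was at 0.03 (limma adjusted p = 0.603), which turned to -0.20 and a call as lower (limma adjusted p = 0.00548). Eif2b2, a subunit of the exchange factor that phosphorylated eIF2 blocks, rose 1.35-fold. On the spike-in scale Eif2b2 was not called (log2 fold change 0.13, limma adjusted p = 0.0653). Of the other subunits of that factor, Eif2b1 and Eif2b5 were called lower on the deposited scale (-0.20 and -0.19). Eif2b3 and Eif2b4 were not called. Kinase RNA does not measure kinase activity.

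The ATF6 and IRE1 arms of the unfolded protein response held genes that rose and genes that fell. Of 21 genes, 9 were called higher and 10 lower, with a median log2 fold change of -0.06. Of all tested genes, 54.4% were called higher and 19.5% lower. After median-ratio scaling 6 of the 21 were higher and 12 lower, with a median of -0.30. Ern1, which encodes IRE1, rose from 16.0 ± 0.0919 to 47.7 ± 2.8 TPM, and Herpud1, an ER degradation gene, from 67.9 ± 1.41 to 161.9 ± 2.16 TPM. The ER chaperone gene Sdf2l1 fell from 154.4 ± 1.05 to 68.8 ± 2.06 TPM, and Pdia4, a disulfide isomerase, fell from 367.5 ± 5.35 to 196.3 ± 0.099 TPM. Of 9 tested mitochondrial chaperone and protease genes, 4 were higher and 2 lower. In that list Hspa9, the mitochondrial HSP70, rose 2.25-fold, Dnaja3 1.29-fold, Lonp1 1.27-fold and Trap1 1.17-fold, the last with an estimate of -0.0049 after median-ratio scaling and none of the last 3 called on the spike-in scale.

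The cytosolic aminoacyl-tRNA synthetases, which load amino acids onto tRNA and include known ATF4 targets, had 17 of 20 genes called higher, 1 lower and a median log2 fold change of 0.53, or 12 higher and 3 lower after median-ratio scaling. Wars, Sars, Eprs and Iars rose between 1.81-fold and 2.16-fold. Of 15 tested folate and glycine genes outside the branch, 8 were called higher and 5 lower, or 5 and 6 after median-ratio scaling. On the deposited scale the share called higher was near the 54.4% of all tested genes. Mthfd2l, a second mitochondrial dehydrogenase, rose 1.76-fold. Of 13 tested transporters outside the branch, 10 were higher and 2 lower, with the largest rises on the log2(TPM + 1) scale in Slc38a7, a lysosomal glutamine carrier (3.19-fold), Slc36a4 (2.33-fold) and Slc38a1 (1.75-fold).

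**Figure D3:**
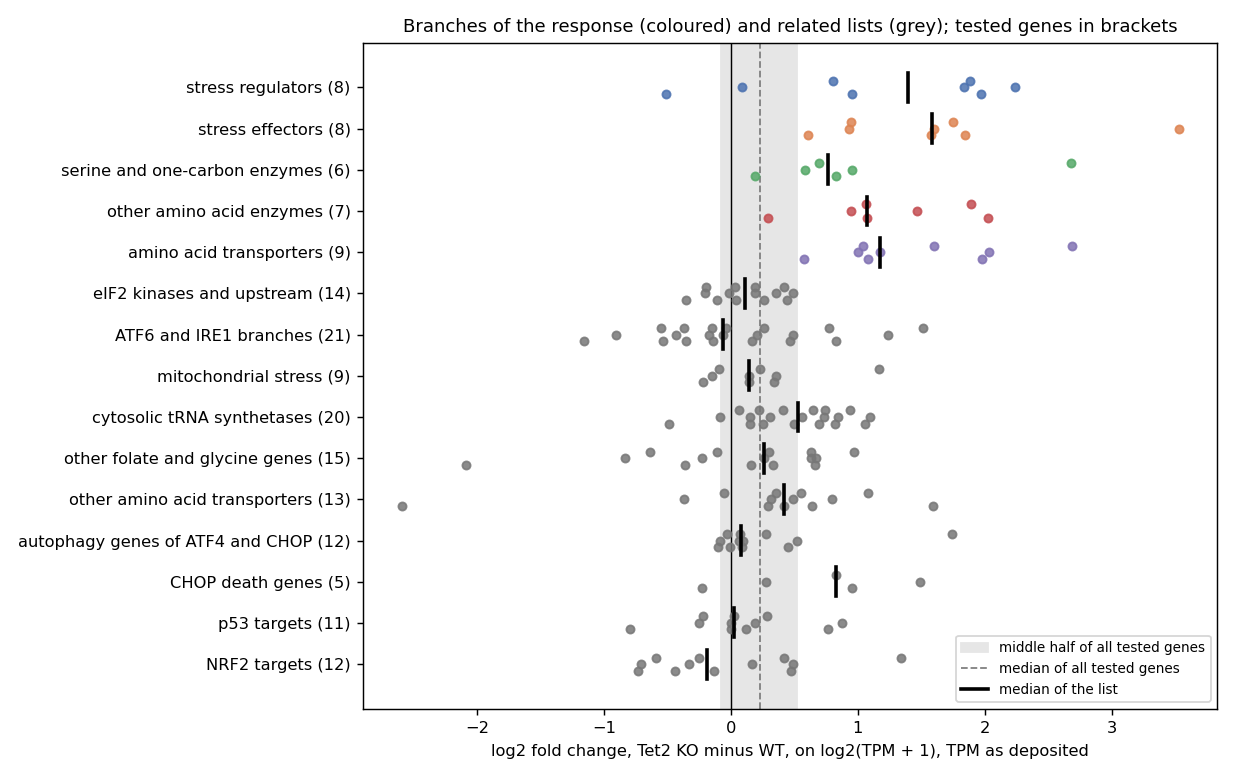
Log2 fold change of each tested gene (x axis, Tet2 KO minus WT, on log2(TPM + 1), deposited TPM) in the 5 branches (coloured) and in 10 related lists (grey), with list medians as black bars, the median of all tested genes dashed and their middle range from the 25th to the 75th percentile (-0.08 to 0.52) shaded. The medians of the 5 branches, 0.76 to 1.58, lie to the right of the shaded range, and of the related lists only those of the tRNA synthetases (0.53) and the CHOP death genes (0.83) do.

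Of 12 autophagy genes known as targets of ATF4 and CHOP, 4 were called higher, 1 lower and 7 not called, or 3 higher and 7 lower after median-ratio scaling. Sqstm1, the autophagy receptor p62, had the largest rise, at 554.8 ± 2.05 TPM in WT and 1861 ± 44.7 TPM in Tet2 KO. Atg12 rose 1.44-fold, Nbr1 1.37-fold and Map1lc3b 1.21-fold, the last not called after median-ratio scaling (log2 fold change 0.05) and at -0.02 on the spike-in scale. Of 5 tested CHOP death genes, 4 were higher and 1 lower. Bbc3, the BH3-only gene PUMA, rose 2.96-fold, Ero1l, the ER oxidase, 1.94-fold, Pmaip1, the BH3-only gene NOXA, 1.78-fold and Bcl2l11, the gene of BIM, 1.22-fold, the last not called after median-ratio scaling (log2 fold change 0.05) and at -0.01 on the spike-in scale.

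Several members are also known targets of p53 (Sesn2, Gdf15, Ddit4) or NRF2 (Slc7a11, Trib3), and the wider lists of both programmes moved in both directions. Each gene was put in 1 list only. The counts and medians of these lists therefore leave out the members, and also Bbc3, Pmaip1 and Sqstm1, which were counted above. Of 11 tested p53 targets, 5 were called higher and 3 lower, with a median of 0.02. After median-ratio scaling 2 of them were higher and 7 lower. Trp53inp1 rose 1.90-fold, Btg2 1.73-fold and the cell cycle inhibitor Cdkn1a 1.22-fold (-0.01 on the spike-in scale), and Plk2 fell 1.80-fold. Of 12 NRF2 targets, 5 were higher and 7 lower, with a median of -0.19. After median-ratio scaling 4 of them were higher and 7 lower. Gclc, the catalytic subunit of glutathione synthesis, rose 2.55-fold, and Pgd, Gsr and Hmox1 fell 1.66-fold, 1.64-fold and 1.51-fold.

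Markers of other blood cells and of progenitors differed between the same libraries. Kit, the SCF receptor of progenitors and mast cells, went from 11.63 and 11.99 TPM in WT to 201.19 and 209.41 TPM in Tet2 KO. Of the 6 myeloid and progenitor genes, Kit included, 4 were called higher and 2 lower. The 2 lower ones were Itgam (log2 fold change -0.77) and Spi1 (-0.42). The summed level of 7 mast cell and basophil markers was 2285 and 2303 TPM in WT and 5359 and 5171 TPM in Tet2 KO, with 3 of 7 called higher and 4 lower. Cpa3, a mast cell carboxypeptidase, set that sum, at 1716 and 1750 TPM in WT against 5030 and 4847 TPM in Tet2 KO, while the other 6 markers together went from 569 and 553 TPM down to 329 and 324 TPM. The sum of 5 megakaryocyte markers was 44.6 and 42.3 TPM in WT and 153.8 and 162.4 TPM in Tet2 KO, with 4 of 4 tested higher. These include Ppbp, at 0.44 and 1.11 TPM in WT and 5.75 and 7.17 TPM in Tet2 KO, which passed the filter through the Tet2 KO libraries. Of the 3 at 1 TPM or more in all 4 libraries, 3 were called higher. The sum of 5 macrophage markers was 857.6 and 857.7 TPM in WT and 690.2 and 716.3 TPM in Tet2 KO, with 1 of 4 tested higher and 3 lower, and C1qa at 0 in all libraries. For 5 erythroid markers the sum ran from 0.11 to 1.6 TPM over the 4 libraries, and for 7 stromal and endothelial markers it was 4.73 and 4.76 TPM in WT and 17.2 and 18.2 TPM in Tet2 KO, from Pdgfrb alone of tested genes. The part of these differences in the values of the 40 genes was not tested.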

How the data were processed

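RNA from 2 WT and 2 Tet2 KO libraries of NRAS and AE9a leukaemia cells was sequenced by the submitters. Per the submitters' processing notes, STAR and RSEM were used with mm10, and their versions are not named. TPM values of 24497 gene rows and 92 ERCC spike-in rows were deposited by the authors as a single table. Groups follow the sample labels. TPM keeps no depth, so the counting error behind a value is unknown. Of the gene rows, 27 carry symbols turned into dates by a spreadsheet, none of them a member.

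From the TPM, log2(TPM + 1) was computed for genes that reached 1 TPM in 2 or more libraries and fitted with limma 3.58.1 (mean trend, robust, statmod 1.5.0, R 4.3.3), with no covariate. Adjusted p-values are Benjamini-Hochberg values over all 11452 tested genes, with a threshold of 0.05. The fit was tested on simulated data with known changes. Log2 fold changes are on the log2(TPM + 1) scale and understate the change of low genes, while folds are ratios of mean TPM. Alternatives were pseudocounts of 0.1 and 5, no filter and a filter at 5 TPM, median-ratio, quantile and ERCC scaling, limma without trend or without robust fitting, a replicate block, and each library left out in turn.

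Values by library are given for called members with a log2 fold change of at least 1 in size, for members not called or not tested, and for Atf4, Ddit3, Asns and Slc3a2, with further members (Atf3, Psat1 and Got1) added after their values were seen. From each related list up to 4 called genes with the largest changes are named, and the 4 eIF2 kinase genes, with the eIF2B subunits added beside Eif2b2. A gene of the folate list that this rule would name is not reported here. Aldh1l1, Mthfd1, Slc7a2, Ppp1r15b and Shmt1 also serve as partners in ratios. Promoter windows (250 bases before the start, RefSeq, GRCm38.p6) were chosen among called members with a TGATGNAAN match by size of change. Whole windows were shown where at most 30 bases fell in annotated exons, and 30 bases elsewhere, a choice made after seeing the windows. Gene positions and exon overlaps are from GENCODE M21. Plots used matplotlib 3.10.9 (Python 3.11.15). The members and the lists were chosen with earlier results of these data known.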

Additional observations from a re-analysis of the deposited data

How the results depend on the processing

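Among the 40 genes, the direction and call held in 515 of the gene-by-setting results, reversed in 5, were lost in 3 and were gained in 1; for the related genes named, they held in 564, reversed in 11 and were lost in 13. The lists' medians moved with the scale, and no branch median changed sign. The other amino acid enzymes had a median of 1.32 at a pseudocount of 0.1. With a pseudocount of 5 the medians were 1.26 for regulators, 1.33 for effectors, 0.71 for serine and one-carbon enzymes and 1.00 for other enzymes. For regulators, effectors, serine and one-carbon enzymes, other enzymes and transporters, in that order, the medians were 1.17, 1.36, 0.53, 0.84 and 0.95 after median-ratio scaling, 1.31, 1.42, 0.62, 0.89 and 1.04 after quantile normalization, and 1.11, 1.30, 0.47, 0.78 and 0.88 on the ERCC spike-in scale, where 2 members were called lower, Atf3 and Cebpb. Median-ratio scaling takes out the general shift of the table by its construction. The spike-in scale is set by the ERCC RNAs alone, and on it the median of all tested genes was -0.044. There, 34 members were called higher, and of all 11452 tested genes 3394 were called higher and 4324 lower.

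Signs changed for the following genes. Cebpb was at -0.14 after median-ratio scaling, at -0.21 on the spike-in scale and at -0.0052 without WT replicate 2 (0.1844, a call as higher, without WT replicate 1), and Psat1 at -0.0454 and -0.1065 on the first 2 of these. Trap1 was at -0.0049 and -0.0655, Eif2ak1 at -0.20 and -0.26, and Eif2ak2 at -0.033 and -0.0923 after median-ratio and spike-in scaling. After quantile normalization Eif2ak1 was at -0.19 and Eif2ak2 at -0.0485. On the spike-in scale Map1lc3b was at -0.0159, Bcl2l11 at -0.0093 and Cdkn1a at -0.0136. Got1 was the only member to lose its call without a change of sign.

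With 1 library left out, the lone library of its group was assumed to vary like the other group. The serine and one-carbon median then ran from 0.62 to 0.78. A replicate block left 36 members higher and 1 lower and called 8390 of all genes. The labels do not say that replicate numbers pair the samples, and the correlation of same-numbered deviations was -0.07 over 7943 genes, so the block joins samples that share only a number.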
